A study of Mus musculus with 6 samples.

Results

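The mitochondrial carrier family comprises the genes whose symbols start with Slc25a, and 36 such genes, with 59 listed transcripts, of 11236 gene symbols in all, are described here from a transcript table of BUMPT cells. BUMPT cells are an established epithelial line from the proximal tubule of mouse kidney. Members were chosen by symbol after matching transcript IDs to the GENCODE M21 annotation on GRCm38, in which 47 Slc25a genes are protein-coding; the other 11 are not analysed here. RNA sequencing compared 3 libraries labelled tRF-Val with 3 libraries labelled NC; the name refers to tRF-Val-TAC-004, a piece of the transfer RNA for valine. Neither the direction of the treatment (fragment added or inhibited) nor the meaning of NC is stated in the labels, which name no other treatment, and all 6 libraries share 1 cell line. The stated purpose was to find a target of the fragment in apoptosis. Separate cultures are not stated for the libraries of a group, and the p-values thus cover the spread among these 6 libraries, possibly a technical one.

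Carriers of this family sit mostly in the inner mitochondrial membrane and move nucleotides, phosphate, carboxylic acids, amino acids and cofactors between the cytosol and the matrix. The ADP/ATP carriers bring ADP in and release ATP, and the phosphate carrier supplies the phosphate that ATP synthase uses. Proximal tubule cells rely heavily on mitochondrial respiration, and the malate-aspartate shuttle and the carnitine carrier feed that respiration with reducing equivalents and fatty acids.

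Values are abundances per transcript that the authors scaled to the library, and a gene's value is the sum over its listed transcripts. They are not read counts, so depth is unknown. The sum over all mouse transcripts was 421201 to 444539 in tRF-Val and 387611 to 389669 in NC. NC 3 stood apart, with mitochondrially encoded transcripts at 17.5% of its values, against 3.16% to 5.29% in tRF-Val and 6.32% and 6.58% in NC 1 and NC 2. Of 8 epithelial markers all 8 were listed, with Krt8, a keratin of simple epithelia, at 312 to 325 in tRF-Val and 171 to 265 in NC. The log2 fold change of Krt8 was 0.49 (limma adjusted p 0.179). It was 0.28 without NC 3 and 0.06 with trends of transcript length and GC content removed. Of the 7 epithelial markers that were tested 5 had positive log2 fold changes and 2 negative ones, Cldn1 and Ocln (-0.38 for Ocln, with overlap). Cldn1, a tight junction protein, averaged 49.5 ± 5.06 in tRF-Val and 74.8 ± 3.39 in NC (SD, n = 3 each; log2 fold change -0.59, limma adjusted p 0.0893). It passed the threshold without NC 3 (-0.62, limma adjusted p 0.0491), in a fit that called 5.79% of all genes tested. With trends of transcript length and GC content removed it was -0.22 (limma adjusted p 0.344). Of 12 proximal tubule markers 2 were among the rows analysed, the water channel Aqp1 and the transcription factor Pax8, and Lrp2, Cubn and Slc34a1 were not. Log2 fold changes were taken as tRF-Val minus NC of log2(value + 1), a scale on which changes of low genes look smaller, and a gene was called at an adjusted p under 0.05 by limma over all genes tested.

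Among the 36 carriers described, none was called in either direction by limma. The members nearest to the threshold were Slc25a24, a calcium-regulated carrier of ATP-Mg and phosphate, and Slc25a30, a relative of uncoupling proteins, both lower in tRF-Val, and the ADP/ATP carrier Slc25a4, higher in tRF-Val. Of 35 tested members, those whose 6 libraries averaged 1 or more, limma called 0 higher and 0 lower, while 0.259% of all genes tested were called (0.0577% higher and 0.202% lower). At an unadjusted p under 0.05, 4 members were higher and 2 lower, against 12.2% and 15.6% of all genes. For 7 members that were higher and 4 that were lower the groups were apart, together 31.4% of members against 42.5% of all genes, so such a pattern was no more frequent among these members than in the table. The median log2 fold change was 0.10 over the members and 0.01 over all genes tested, with 19 members positive and 16 negative.

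Leaving out NC 3 or treating transcripts singly gave 0 called among these members as well. Without NC 3, 5.79% of all genes were called (2.75% higher and 3.04% lower). At an unadjusted p under 0.05, 5 members were then higher and 3 lower, where 15.9% and 19.9% of all genes were. Over 50 single transcripts of these members limma called 0, where 1.14% of all 16320 transcripts were called (0.3% higher and 0.839% lower). At an unadjusted p under 0.05, 3 of these transcripts were higher and 3 lower, where 9% and 10.4% of all transcripts were. The lower ones include ENSMUST00000139638.1 of Slc25a11, with means of 0.364 in tRF-Val and 2.58 in NC. Every listed row has a group mean of 0.5 or more, which this transcript reached in NC alone. It is thus listed only through the group where it is higher, and its count carries no weight. With library quality weights, in a fit that did not converge, 5 carriers were called higher and 5 lower, while 54.0% of all genes were called. Slc25a29, at a mean of 1.09, was just inside the limit for testing and Slc25a47, at 0.328, was outside it.

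**Figure D1:**
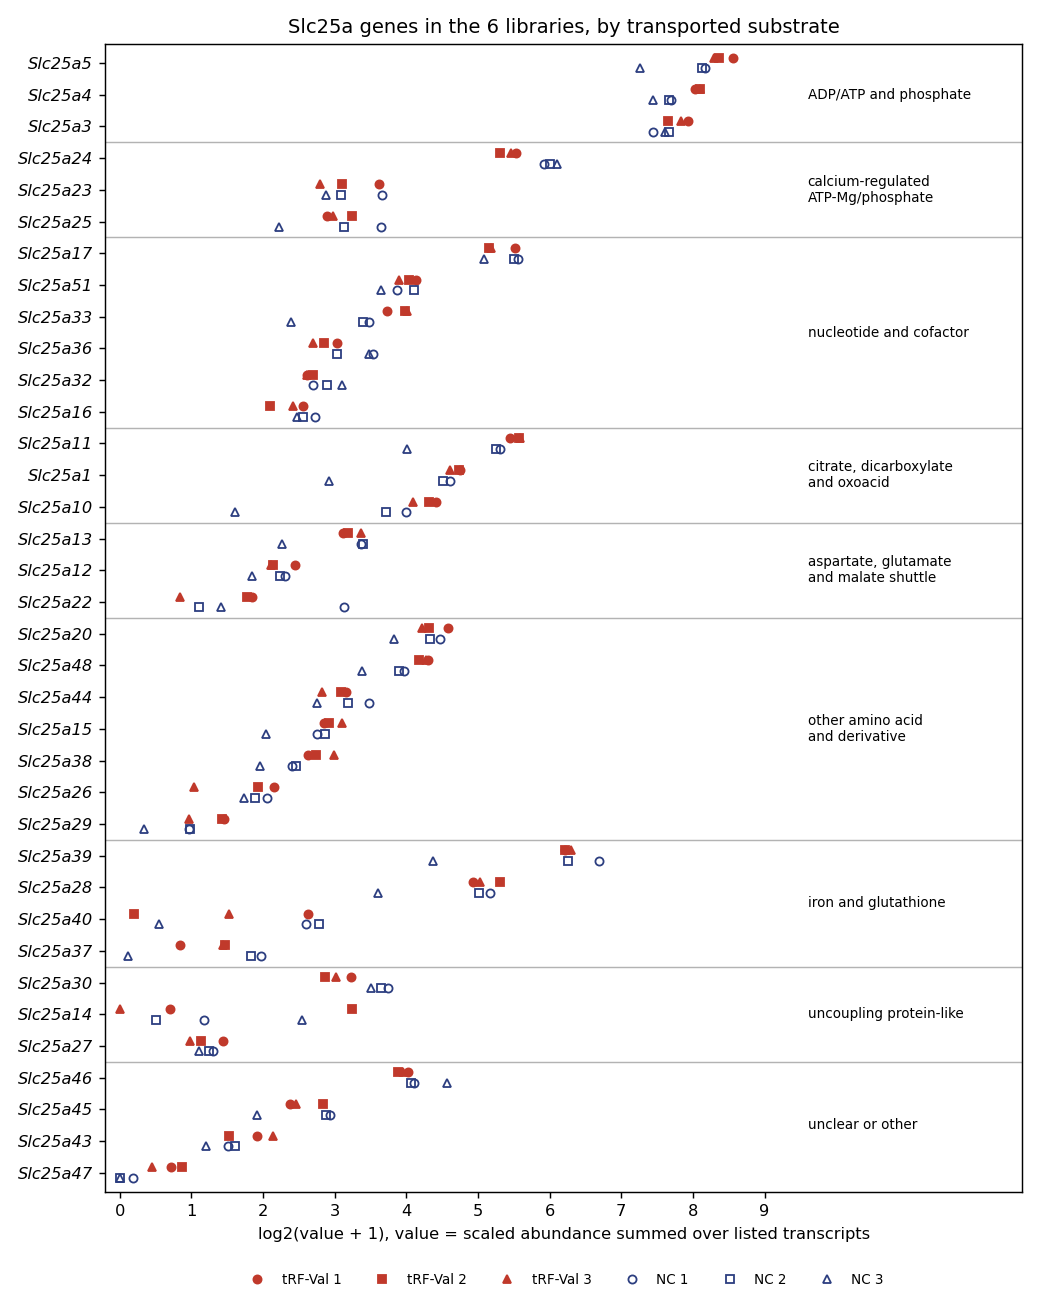
Value of each of 36 listed Slc25a genes in each library as log2(value + 1), grouped by transported substrate, with filled red symbols for tRF-Val and open blue symbols for NC. NC 3, the open triangle, is the lowest of the 6 libraries in 22 of the 35 tested members.

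The ADP/ATP carriers and the phosphate carrier were the most abundant members. Slc25a5, the ADP/ATP carrier typical of proliferating cells, was at 378, 327 and 314 in tRF-Val 1, 2 and 3 and at 288, 280 and 152 in NC 1, 2 and 3. Slc25a4, the ADP/ATP carrier typical of heart and muscle, was at 259, 274 and 272 in tRF-Val 1, 2 and 3 and at 206, 202 and 172 in NC 1, 2 and 3. Each tRF-Val library lay above each NC library in both genes, and NC 3 was the lowest library in both. The log2 fold change of Slc25a4 was 0.47 (SE 0.136, limma adjusted p 0.109), and without NC 3 it was 0.39 with an adjusted p of 0.0529. It was smaller, at 0.13 (adjusted p 0.506), after quantile normalization, at 0.22 after rescaling without mitochondrially encoded transcripts, and at 0.24 with the length and GC trends removed. For Slc25a5 it was 0.55 (SE 0.273, limma adjusted p 0.234), and 0.25 without NC 3. Slc25a3, the phosphate carrier, was at 242, 201 and 227 in tRF-Val 1, 2 and 3 and at 173, 202 and 195 in NC 1, 2 and 3, so the groups overlapped (log2 fold change 0.23, limma adjusted p 0.319). Slc25a5 has a processed pseudogene and resembles Slc25a4 in sequence, and the authors' assignment may have divided reads among such copies.

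The summed value of the 36 carriers was 1345, 1255 and 1249.9 in tRF-Val 1, 2 and 3 and 1186, 1144.5 and 811 in NC 1, 2 and 3. The difference of the means was 236, and the two-sided exact permutation test gave p = 0.1, the smallest that 3 against 3 libraries allow. Without NC 3 the difference was 118, and after rescaling without mitochondrially encoded transcripts it was 41.1 (exact permutation p = 0.8). As a share of all mouse values the family took 0.319%, 0.282% and 0.287% in tRF-Val 1, 2 and 3 and 0.306%, 0.295% and 0.208% in NC 1, 2 and 3. Those shares overlapped between the groups, with NC 3 lowest (exact permutation p = 0.6). Slc25a3, Slc25a4 and Slc25a5 together made up 63.9% to 65.4% of the family sum in tRF-Val and 56.3% to 64.0% in NC (exact permutation p = 0.2).

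Among the calcium-regulated ATP-Mg/phosphate carriers, which adjust the adenine nucleotide content of the matrix, Slc25a24 was lower in tRF-Val. It was at 45.3, 38.7 and 43.2 in tRF-Val 1, 2 and 3 and at 59.8, 63.3 and 67.4 in NC 1, 2 and 3, without overlap and with little spread inside either group. Its log2 fold change was -0.57 (SE 0.135, limma adjusted p 0.0893), it was -0.53 without NC 3 (adjusted p 0.0512), and it was -0.16 after removal of the length and GC trends. Its transcript has 3431 bases and a GC content of 42.5%. The related Slc25a23 averaged 8.29 ± 2.74 in tRF-Val and 8.49 ± 2.76 in NC (SD, n = 3 each), and Slc25a25 averaged 7.23 ± 1.05 in tRF-Val and 7.65 ± 3.97 in NC, with log2 fold changes of -0.03 and 0.04. Both overlapped between the groups.

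Among carriers of nucleotides and cofactors, the groups were apart in the pyrimidine nucleotide carriers Slc25a33 and Slc25a36. Slc25a33 was at 12.3, 14.8 and 15.2 in tRF-Val 1, 2 and 3 and at 10.2, 9.54 and 4.26 in NC 1, 2 and 3 (log2 fold change 0.82, SE 0.318, limma adjusted p 0.164). Its relative Slc25a36 was at 7.16, 6.22 and 5.46 in tRF-Val 1, 2 and 3 and at 10.5, 7.17 and 10.1 in NC 1, 2 and 3 (log2 fold change -0.49, SE 0.203, limma adjusted p 0.181). The tRF-Val libraries lay above the NC libraries in Slc25a33 and below them in Slc25a36, where tRF-Val 1 and NC 2 were close. In NC 1, 7.51 of the Slc25a36 value came from ENSMUST00000035024.7, which was at 0.000479 in NC 2 and listed at 0 in the other libraries. Its other transcript, ENSMUST00000085206.10, was at 7.16, 6.22 and 5.46 in tRF-Val 1, 2 and 3 and at 3.04, 7.17 and 10.1 in NC 1, 2 and 3. For that transcript the groups overlapped (log2 fold change 0.02, adjusted p 0.985, limma over transcripts). Without NC 3 the log2 fold change of Slc25a33 was 0.47 (limma adjusted p 0.0811). The transcripts of Slc25a33 average 1887 bases and 53.8% GC, and those of Slc25a36 average 5036 bases and 40.4% GC. With the length and GC trends removed the log2 fold changes were 0.49 for Slc25a33 and 0.14 for Slc25a36, so the direction of Slc25a36 did not hold there. Within each library, Slc25a33 made up 63.2%, 70.5% and 73.5% of the pair in tRF-Val 1, 2 and 3, while it made up 49.1%, 57.1% and 29.7% in NC 1, 2 and 3. That share, which does not depend on the scaling of a library, was higher by 23.8 percentage points in tRF-Val (exact permutation p = 0.1, the smallest possible, and 0.5 after Benjamini-Hochberg adjustment over 5 pairs), and by 15.9 without NC 3. ENSMUST00000035024.7, with means of 0 in tRF-Val and 2.50 in NC, is listed only through NC, the group where it is higher. Without it, Slc25a36 in NC 1 is at 3.04 beside 10.2 for Slc25a33, a larger Slc25a33 share than in any tRF-Val library. The groups then overlap, so the separation of the share over all 6 libraries and its p rest on that transcript in NC 1. The share was not recomputed with the length and GC trends removed.

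The remaining nucleotide and cofactor carriers overlapped between the groups. Slc25a17, a peroxisomal carrier of cofactors, averaged 38.2 ± 5.60 in tRF-Val and 41.2 ± 7.12 in NC (SD, n = 3 each), and Slc25a51, the NAD carrier, averaged 15.3 ± 1.33 in tRF-Val and 13.8 ± 2.35 in NC. Slc25a32, linked to folate and FAD transport, averaged 5.24 ± 0.238 in tRF-Val and 6.51 ± 1.05 in NC, and Slc25a16, linked to coenzyme A, averaged 4.16 ± 0.835 in tRF-Val and 5.02 ± 0.547 in NC. Their log2 fold changes were -0.10 for Slc25a17, 0.15 for Slc25a51, -0.26 for Slc25a32 and -0.23 for Slc25a16. With the length and GC trends removed they were -0.17 for Slc25a17, 0.53 for Slc25a51, 0.40 for Slc25a32 and 0.10 for Slc25a16.

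**Figure D2:**
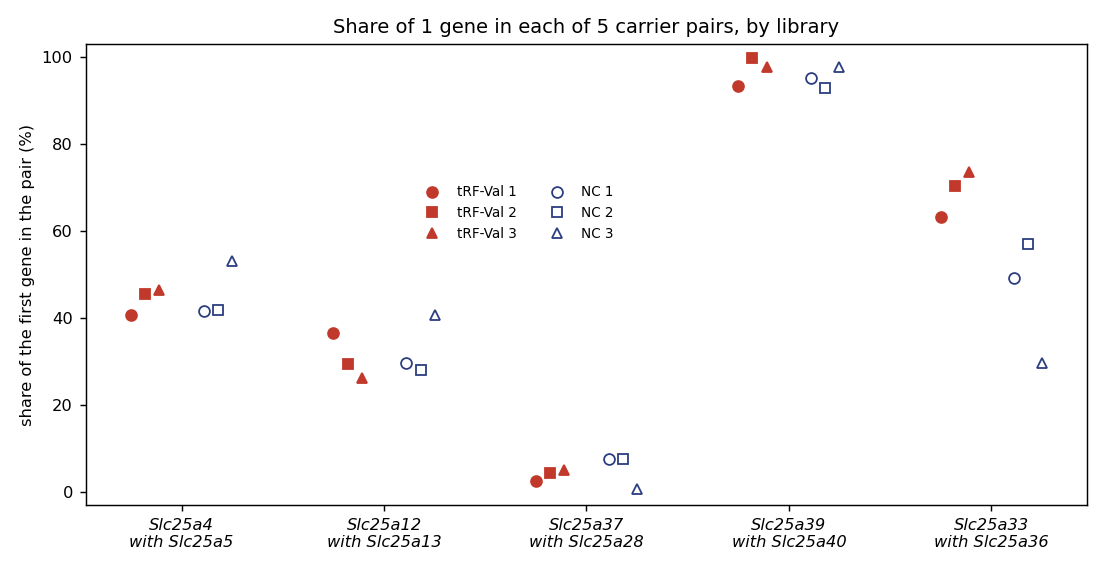
Share in percent of the first gene in each of 5 pairs of related carriers, for each library, with filled red symbols for tRF-Val and open blue symbols for NC. The Slc25a33 share lies at 63.2% to 73.5% in tRF-Val and 29.7% to 57.1% in NC, and the other 4 pairs overlap. In NC 1, 7.51 of the Slc25a36 value comes from ENSMUST00000035024.7, and without that transcript the Slc25a33 share overlaps as well.

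In each of the other 4 pairs the groups overlapped. The Slc25a4 share of the 2 ADP/ATP carriers averaged 44.2% ± 3.13 in tRF-Val and 45.6% ± 6.48 in NC (SD, n = 3 each; exact permutation p = 0.8). The share of Slc25a12 in the pair of aspartate/glutamate carriers averaged 30.8% ± 5.21 in tRF-Val and 32.8% ± 6.81 in NC (n = 3 each; exact permutation p = 0.6). Mitoferrin-1, Slc25a37, made up 4.03% ± 1.29 of the 2 mitoferrins in tRF-Val and 5.35% ± 3.98 in NC, so mitoferrin-2, Slc25a28, held most of the summed value of that pair. Slc25a39 made up 96.9% ± 3.26 of its pair with Slc25a40 in tRF-Val and 95.2% ± 2.46 in NC.

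The citrate, dicarboxylate and oxoglutarate carriers, which exchange intermediates of the citric acid cycle, were each lowest in NC 3. Slc25a1, the citrate carrier, was at 25.9, 25.7 and 23.4 in tRF-Val 1, 2 and 3 and at 23.5, 21.8 and 6.56 in NC 1, 2 and 3. Slc25a10, the dicarboxylate carrier, was at 20.4, 18.9 and 16.0 in tRF-Val 1, 2 and 3 and at 14.9, 12.1 and 2.04 in NC 1, 2 and 3. Slc25a11, the oxoglutarate carrier of the malate-aspartate shuttle, was at 42.6, 46.7 and 47.3 in tRF-Val 1, 2 and 3 and at 38.5, 37.2 and 15.1 in NC 1, 2 and 3. The groups did not overlap for Slc25a10 and Slc25a11 and did for Slc25a1, and in all 3 genes NC 3 was far below NC 1 and NC 2. For Slc25a10 and Slc25a11 the tRF-Val libraries thus lay above each NC library, NC 1 and NC 2 included. Log2 fold changes follow in the order Slc25a1, Slc25a10 and Slc25a11. With all libraries they were 0.69, 1.17 and 0.68 (SE 0.457, 0.622 and 0.361, limma adjusted p 0.35, 0.258 and 0.258). Without NC 3 they were 0.14, 0.42 and 0.26. With the length and GC trends removed they were 0.12, 0.69 and 0.26, and with those trends removed and without NC 3 they were -0.06, 0.34 and 0.08.

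The aspartate/glutamate carriers overlapped between the groups. Slc25a13, the form typical of liver and kidney, was at 7.71, 8.13 and 9.32 in tRF-Val 1, 2 and 3 and at 9.32, 9.55 and 3.79 in NC 1, 2 and 3 (log2 fold change 0.22, SE 0.335, limma adjusted p 0.682). Slc25a12, the form typical of brain and muscle, was at 4.43, 3.40 and 3.33 in tRF-Val 1, 2 and 3 and at 3.94, 3.74 and 2.59 in NC 1, 2 and 3 (log2 fold change 0.10, SE 0.204, limma adjusted p 0.762). Without NC 3 the log2 fold change was -0.16 for Slc25a13 and -0.04 for Slc25a12, so neither had a direction that held in both fits. Slc25a22, a glutamate carrier, averaged 1.94 ± 0.991 in tRF-Val and 3.52 ± 3.67 in NC (SD, n = 3 each), where NC 1 alone reached 7.75.

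Among members grouped under amino acids and their derivatives, the carnitine carrier included, 2 did not overlap between the groups. The grouping is broad, and no substrate is assigned to Slc25a48 here. Slc25a38, which supplies glycine for heme synthesis, was at 5.16, 5.68 and 6.96 in tRF-Val 1, 2 and 3 and at 4.28, 4.49 and 2.90 in NC 1, 2 and 3 (log2 fold change 0.51, SE 0.210, limma adjusted p 0.177). Slc25a48 was at 18.8, 17.1 and 18.3 in tRF-Val 1, 2 and 3 and at 14.7, 14.0 and 9.44 in NC 1, 2 and 3 (log2 fold change 0.50, SE 0.199, limma adjusted p 0.17). Both were higher in every tRF-Val library, and without NC 3 their log2 fold changes were 0.36 and 0.31. With the length and GC trends removed they were 0.09 for Slc25a38 (limma adjusted p 0.797) and 0.54 for Slc25a48 (limma adjusted p 0.0866). Slc25a20, the carnitine and acylcarnitine carrier that brings fatty acids to oxidation, was at 23.0, 18.9 and 17.6 in tRF-Val 1, 2 and 3 and at 21.2, 19.1 and 13.2 in NC 1, 2 and 3, with overlap (log2 fold change 0.16, limma adjusted p 0.641). Slc25a29, a carrier of basic amino acids, was low, at 1.73, 1.69 and 0.949 in tRF-Val 1, 2 and 3 and at 0.945, 0.973 and 0.261 in NC 1, 2 and 3 (log2 fold change 0.52, limma adjusted p 0.227). Slc25a15, the ornithine carrier of the urea cycle, averaged 6.79 ± 0.684 in tRF-Val and 5.05 ± 1.69 in NC, and Slc25a44, a carrier of branched-chain amino acids, averaged 7.16 ± 0.942 in tRF-Val and 7.98 ± 2.18 in NC (SD, n = 3 each). Slc25a26, the S-adenosylmethionine carrier, averaged 2.44 ± 1.24 in tRF-Val and 2.72 ± 0.426 in NC.

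Among the iron and glutathione carriers, Slc25a39 and Slc25a28 were lowest in NC 3. Slc25a39, which carries glutathione into the matrix, was at 73.0, 73.2 and 77.6 in tRF-Val 1, 2 and 3 and at 102, 75.8 and 19.8 in NC 1, 2 and 3. Slc25a28 was at 29.6, 38.7 and 31.7 in tRF-Val 1, 2 and 3 and at 34.9, 31.4 and 11.2 in NC 1, 2 and 3. Their log2 fold changes were 0.46 and 0.50 with all libraries (limma adjusted p 0.614 and 0.462), and -0.24 and -0.0013 without NC 3, so the difference between the groups rested on that library. Slc25a37 averaged 1.42 ± 0.546 in tRF-Val and 1.86 ± 1.55 in NC, and Slc25a40 averaged 2.40 ± 2.55 in tRF-Val and 3.81 ± 2.93 in NC (SD, n = 3 each). In these low genes the log2 fold change was -0.06 for Slc25a37 and -0.53 for Slc25a40 with all libraries, and without NC 3 it was -0.66 and -1.24 (limma adjusted p 0.122 and 0.27).

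Of the carriers related to uncoupling proteins, Slc25a30, a carrier first described in kidney, was lower in tRF-Val. It stood at 8.39, 6.27 and 7.07 in tRF-Val 1, 2 and 3 and at 12.4, 11.5 and 10.4 in NC 1, 2 and 3, and NC 3 was close to the other NC libraries. The log2 fold change was -0.59 (SE 0.171, limma adjusted p 0.109), it was -0.65 without NC 3 (adjusted p 0.0598), and it was -0.21 after removal of the length and GC trends. Slc25a27 averaged 1.29 ± 0.378 in tRF-Val and 1.33 ± 0.161 in NC (SD, n = 3 each). Slc25a14 varied within both groups: tRF-Val 1 and 2 had 0.62 and 8.49, tRF-Val 3 was listed at 0, and the gene was at 1.26, 0.416 and 4.80 in NC 1, 2 and 3.

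The members without a clear or shared substrate included Slc25a46, an outer membrane protein that acts in mitochondrial fission and lipid transfer. It was at 15.2, 13.8 and 14.5 in tRF-Val 1, 2 and 3 and at 16.2, 15.7 and 22.7 in NC 1, 2 and 3, lower without overlap (log2 fold change -0.29, SE 0.185, limma adjusted p 0.324), -0.13 without NC 3, here the highest library, and 0.26 with the length and GC trends removed. Slc25a43 was at 2.78, 1.88 and 3.41 in tRF-Val 1, 2 and 3 and at 1.84, 2.04 and 1.30 in NC 1, 2 and 3 (log2 fold change 0.43, limma adjusted p 0.253). Slc25a45 averaged 4.96 ± 1.06 in tRF-Val and 5.27 ± 2.17 in NC (SD, n = 3 each). Slc25a47, a carrier typical of liver, was at 0.637, 0.828 and 0.372 in tRF-Val 1, 2 and 3, at 0.133 in NC 1 and listed at 0 in NC 2 and NC 3, below the limit for testing. Every mouse row has a larger group mean of 0.5 or more, which Slc25a47 reached in tRF-Val alone (means 0.612 in tRF-Val and 0.0444 in NC). It is thus listed only through the group where it is higher, and no fold change is given for it.

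**Figure D3:**
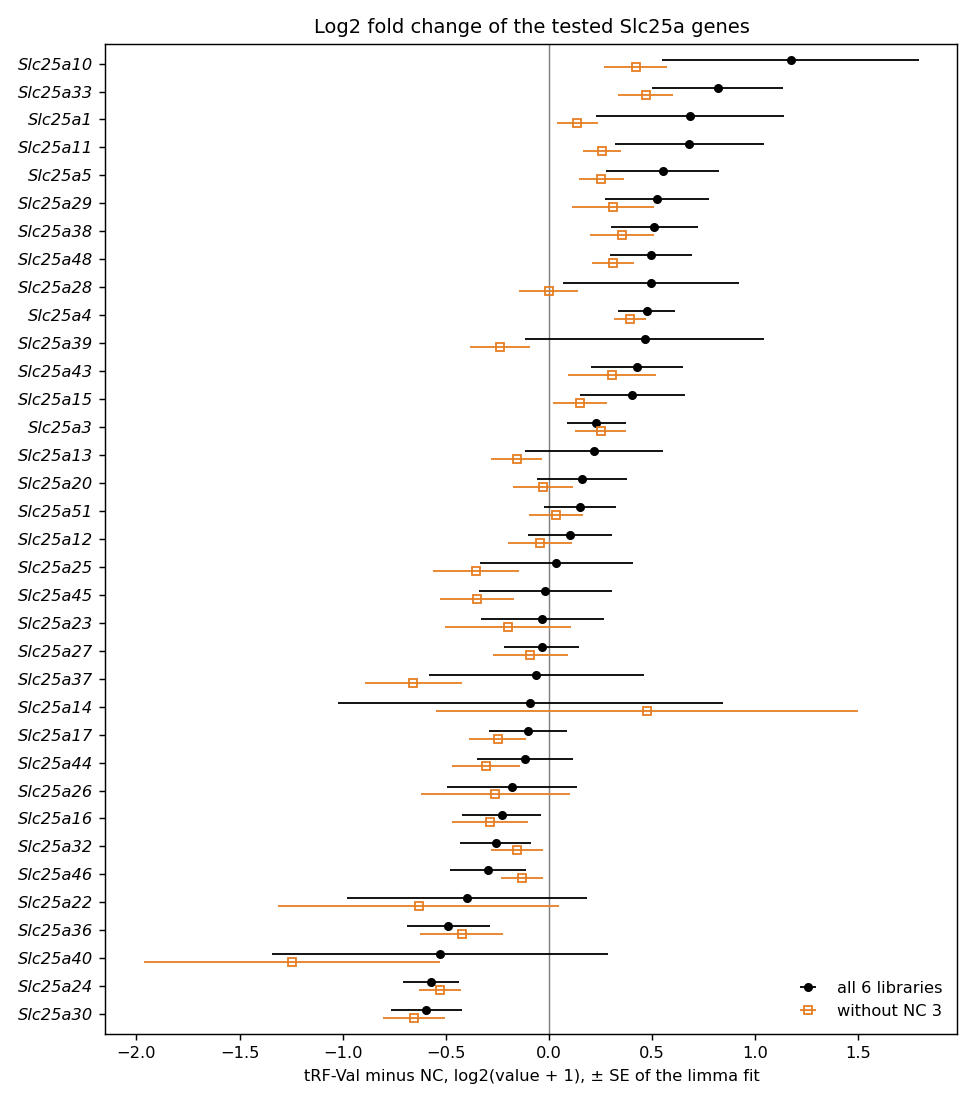
Log2 fold change of each of 35 tested Slc25a genes, the difference of tRF-Val and NC in log2(value + 1), with the SE of the limma fit as bars, for all 6 libraries (black) and without NC 3 (orange). Slc25a10 is highest at 1.17 with all libraries and lies at 0.42 without NC 3, and Slc25a1, Slc25a28 and Slc25a39 also lie nearer to 0 or below it without NC 3.

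GC content of the transcripts, NC 3 and the fold changes moved together across the family. NC 3 was the lowest of the 6 libraries in 22 of 35 members (62.9%), against 42.6% of all genes tested, and lay below the mean of NC 1 and NC 2 in 29 members (82.9%), against 62.4% of all genes. Among the 17 members with a GC content above the family's median, 13 had log2 fold changes above 0, the median was 0.47, and NC 3 was below the mean of the other NC libraries in all 17. Among the 18 at or below it, 6 were positive, with a median of -0.10, and NC 3 was below in 12. Across the 35 members Spearman's rho of the fold change was 0.68 with GC content and -0.56 with transcript length; across all 10405 genes it was 0.45 and -0.56. These are descriptions across genes of the same 6 libraries, in which every gene shares the library's make-up. NC 3 is also part of the NC mean in each fold change, so a low NC 3 raises the fold change by construction. After removal of the length and GC trends the median log2 fold change was 0.06 over the members and 0.03 over all genes, and without NC 3 it was -0.09 over the members and -0.08 over all genes.

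**Figure D4:**
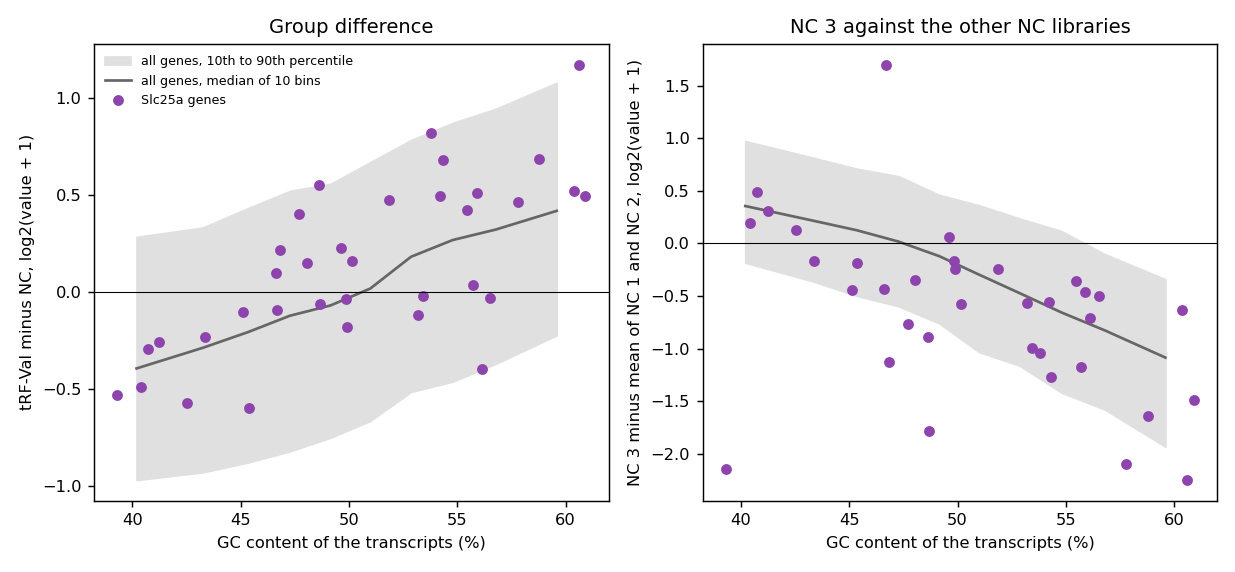
Group difference (left) and NC 3 minus the mean of NC 1 and NC 2 (right), both on the log2(value + 1) scale, against GC content of the transcripts in percent, for 35 Slc25a genes (points) and all 10405 genes tested (median line, and band between percentiles 10 and 90, of bins of genes). Members rich in GC tend to lie above 0 on the left and below 0 on the right, as the median of all genes does. NC 3 enters both panels, so they are not independent.

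Which transcript of a gene had the highest value varied among libraries. Of 14 members with more than 1 listed transcript, the leading transcript differed between libraries of the same group in 11 and was the same in all 6 libraries in 3. In 0 of these 14 did each group have a single leading transcript that differed between the groups. In Slc25a13 NC 3 departed from the other NC libraries. The form ENSMUST00000188414.3 was at 7.70, 8.13 and 9.31 in tRF-Val 1, 2 and 3 and at 0.497, 0.40 and 3.79 in NC 1, 2 and 3, while ENSMUST00000015256.14 was at 8.82 and 9.15 in NC 1 and NC 2, listed at 0 in NC 3 and at no more than 0.0122 in tRF-Val. The form that led in all 3 tRF-Val libraries thus also led in NC 3, and it had an adjusted p of 0.142 (log2 fold change 2.12, limma over transcripts). By annotation the 2 forms, of 3121 and 3067 bases, share their 16 inner exons and the whole reading frame. ENSMUST00000188414.3 begins 55 bases further upstream and ends 1 base earlier, so the authors' division between the forms rests on those ends. In Slc25a3 the form ENSMUST00000164505.1 was at 21.7, 25.9 and 25.9 in tRF-Val 1, 2 and 3 and at 6.83, 99.0 and 54.3 in NC 1, 2 and 3, while the gene sum lay between 173 and 242 in all 6 libraries.

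Carriers reach the inner membrane through import proteins, and of 16 such genes 0 were called by limma. The groups did not overlap in 11 that were higher and 2 that were lower, where 20.3% and 22.1% of all genes tested did so, and 13 of 16 fold changes were positive with a median of 0.59. Timm10b and Timm8b, relatives of the small chaperones of the intermembrane space, averaged 17.4 ± 1.91 and 144 ± 19.6 for the tRF-Val group, against 7.53 ± 2.70 and 93.2 ± 7.0 for the NC group (SD, n = 3 each), and Tomm7, of the outer membrane translocase, averaged 88.3 ± 14.3 in tRF-Val and 52.0 ± 1.72 in NC. Their limma adjusted p were 0.0861, 0.0929 and 0.0866. The log2 fold changes were 1.15 for Timm10b, 0.62 for Timm8b and 0.74 for Tomm7. With the length and GC trends removed they were 0.47, 0.03 and 0.46. The median of the list was 0.43 without NC 3 and 0.15 after removal of the length and GC trends. Members that were lower were Agk, a lipid kinase that in human cells is also a subunit of the carrier translocase, at 5.08 ± 0.822 in tRF-Val and 7.12 ± 0.458 in NC, and Tomm70a, the outer membrane receptor for carrier precursors, at 61.5 ± 3.65 in tRF-Val and 85.1 ± 23.0 in NC (SD, n = 3 each). Their log2 fold changes were -0.42 and -0.43, and with the length and GC trends removed they were -0.37 for Agk and 0.24 for Tomm70a.

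Relatives of the family under other names, and other mitochondrial transporters, gave 0 calls by limma among 3 and 19 tested genes. Mtch2, an outer membrane relative of the carriers, averaged 80.3 ± 5.65 in tRF-Val and 54.4 ± 10.5 in NC (SD, n = 3 each), with a log2 fold change of 0.57 and a limma adjusted p of 0.116. Mtch1 and Ucp2, an uncoupling protein, had log2 fold changes of 0.41 and 0.30, and their groups overlapped. Without NC 3 these were 0.17 and 0.03, and with the length and GC trends removed they were -0.10 and 0.36. Mpc2, a subunit of the pyruvate carrier, averaged 47.7 ± 5.76 in tRF-Val and 21.9 ± 7.84 in NC (log2 fold change 1.14, limma adjusted p 0.0929), without overlap. Mpc1, another subunit of that carrier, went the other way, at 7.99 ± 3.03 in tRF-Val and 14.1 ± 3.63 in NC (log2 fold change -0.77, limma adjusted p 0.175). The groups overlapped for Mpc1, and without NC 3 its log2 fold change was -0.97. Smdt1, a subunit of the calcium uniporter, and Letm1, a cation exchanger, had log2 fold changes of 1.00 and 0.39 (limma adjusted p 0.122 and 0.137), both without overlap. With the length and GC trends removed the log2 fold change was 0.51 for Mpc2, -1.16 for Mpc1, 0.11 for Smdt1 (adjusted p 0.845) and 0.66 for Letm1. The median log2 fold change of the 19 other transporters was 0.30, and 0.10 without NC 3.

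Markers of other cell types were measured in the same libraries. Of 7 leukocyte markers 3 were listed, with sums of 33.6 to 40.1 in tRF-Val and 7.11 to 22.9 in NC, most of it Cd14, a receptor for bacterial lipopolysaccharide, at 33.8 ± 2.97 in tRF-Val and 15 ± 8.41 in NC (SD, n = 3 each; log2 fold change 1.30, limma adjusted p 0.149). Without NC 3, Cd14 passed the threshold (log2 fold change 0.74, limma adjusted p 0.0419), in a fit that called 5.79% of all genes tested. Of 5 endothelial markers 1 was listed, Cdh5, at 2.72 to 5.02 in tRF-Val and 6.25 to 8.03 in NC. The 2 of 5 fibroblast markers that were listed summed to 1.01 to 1.76 in tRF-Val and 0.85 to 1.26 in NC, and the 8 epithelial markers summed to 780 to 920 in tRF-Val and 469 to 686 in NC. Their part in the values of the carriers was not tested.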

How the data were processed

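Libraries of 3 tRF-Val and 3 NC samples kept strand information through dUTP labelling, per the labels' protocols; that text also mentions joint tissue, whereas each sample is labelled as kidney cells. The submitters' processing notes name cutadapt, HISAT2 2.1.0, StringTie and the human build GRCh38, without annotation release or settings. For each transcript and library the deposited values are a signal, namely an abundance scaled by the authors (FPKM and TPM cannot be told apart), so count models were not used and depth is unknown. The table has 30813 rows: 9210 with human IDs, not used, and 21603 with mouse IDs, of which 21558 matched GENCODE M21 (20488 in the same version). In every mouse row the larger of the 2 group means is 0.5 or more, and transcripts under that level do not enter the sums.

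Values were added per symbol. For genes averaging 1 or more, limma 3.58.1 (R 4.3.3; trend, robust) was run on log2(value + 1), 2 groups and no covariate, with two-sided p-values adjusted by Benjamini-Hochberg over all 10405 genes, threshold 0.05. Trends with transcript length and GC content were loess curves (span 0.3) removed per library; 5 tested genes lacked a GC value and were given the median. Exact permutation tests used scipy 1.17.1. Members, lists and the rule for named genes (members that passed, the 12 with the smallest p and the ADP/ATP, phosphate, citrate, aspartate/glutamate and carnitine carriers) were chosen with earlier results of these data known. The fit was tested on simulated data. The alternatives for paralog shares were chosen after seeing the data. Of the family, 1 listed gene is not reported here; it enters no count, sum or median of the carriers, only the fit over all genes.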

Additional observations from a re-analysis of the deposited data

How the results depend on the processing

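The count of carriers called, 0 higher and 0 lower, was the same in 19 of 20 alternatives over genes, the fits that leave out 1 library included, and over single transcripts. It became 5 higher and 5 lower with library quality weights, whose fit did not converge and which called 2340 genes higher and 3280 lower over the table. The table's calls, 6 higher and 21 lower, moved more: to 2 and 3 with a pseudocount of 0.1, 0 and 0 with 0.01, 1 and 1 with a mean of at least 5, 15 and 23 with libraries scaled to a common median, 22 and 49 with quantile normalization, 23 and 186 after rescaling without mitochondrially encoded transcripts, and 16 and 26 with length and GC trends removed. The calls that were lower numbered 36 without trend and 32 without robust moderation in limma. Leaving out 1 library gave 0 to 286 higher and 3 to 316 lower, and leaving out NC 3 with the length and GC trends removed gave 63 and 58.

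With the replicate number as a block 0 genes were called in each direction (1080 higher and 1375 lower at an unadjusted p under 0.05) and 0 carriers were called. The labels do not say whether same-numbered libraries were paired. Their deviations from the group means had correlations of -0.03, 0.016 and -0.0095, which with 3 libraries per group cannot show whether they were.

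The median fold change of the carriers was -0.09 to 0.23 when 1 library was left out. The difference in the family's summed value, 236, was 41.1 after rescaling without mitochondrially encoded transcripts (exact permutation p = 0.8), and 118 to 305 when 1 library was left out. The difference in share, in percentage points, was -3.29 to 2.37 for Slc25a4, -4.91 to 1.86 for Slc25a12, -3.62 to -0.13 for Slc25a37, 0.261 to 3.46 for Slc25a39 and 15.9 to 29.7 for Slc25a33.

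Of 336 log2 fold changes of 17 named carriers under the alternatives, 24 changed sign and 7, all with library quality weights, newly passed the threshold. Slc25a36 was 0.14 with length and GC trends removed and 0.048 with that and without NC 3, where Slc25a5 was -0.0068, Slc25a43 -0.0697, Slc25a1 -0.0586 and Slc25a20 -0.0863. Slc25a43 was -0.0537 with the length trend and -0.24 with both trends removed. Slc25a3 was -0.0848 with quantile normalization, -0.025 after rescaling without mitochondrially encoded transcripts, -0.0890 with the length trend and -0.0295 with both trends removed. After that rescaling, which moved the median of all genes to -0.20, Slc25a12 was -0.0959, Slc25a13 -0.0037 and Slc25a20 -0.0810. With library quality weights they were -0.0857, -0.0954 and -0.0518. Slc25a20 was -0.0611 with the length trend and -0.0284 with both trends removed. Leaving out 1 library gave -0.0427 to 0.187 for Slc25a12, -0.16 to 0.413 for Slc25a13 and -0.0294 to 0.292 for Slc25a20, each lowest without NC 3. Slc25a12 was -0.0048 without tRF-Val 1. The cause of these shifts was not tested. Depth is unknown, so no limit of detection can be given.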
